A study of Mus musculus with 6 samples.

Results

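The genes described here encode the metabolite carriers of the mitochondrial membranes and the machinery that imports proteins into mitochondria. They were chosen by name, as the gene symbols that start with Slc25a, Timm or Tomm in the deposited expression table, and they number 53 of its 10128 genes: 30 carriers (Slc25a), 15 Timm genes and 8 Tomm genes. The last 23 are called import genes below. GENCODE lists 73 protein-coding mouse genes with these symbols, and the other 20 were not analysed here. RNA was sequenced from mouse embryonic stem (ES) cells of genotype Tex19.1-/- (3 libraries), which lack Tex19.1, and of genotype Tex19.1+/- (3 libraries), which keep 1 working copy. Both descend from E14Tg2a, a male ES line on a 129/Ola background, and both were kept on gelatin in medium with foetal calf serum and leukaemia inhibitory factor and taken at passages 12-18. A Tex19.1+/+ group was not used here, and the labels give neither the number of clones nor whether libraries of 1 genotype came from separate cultures. P-values therefore measure only the spread between these libraries, which may be technical.

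The table holds 1 log2 fold change, 1 mean expression and 1 p-value per gene from the authors' own comparison, so values of single libraries, their depth and their spread are unknown. No header says which genotype is on top. A positive fold change was taken to mean a higher level in Tex19.1-/- cells, since Tex19.1 stood lowest of all genes, at -6.92 on the log2 scale by the authors' deposited table. A gene is said to have risen or fallen where its adjusted p was under 0.05 there, with the adjustment over all genes. Most such changes are small, and 51.7% of all genes passed, 25.2% higher and 26.5% lower in Tex19.1-/- cells by the authors' deposited table. The markers of the labelled cell type were present: mean levels of the 6 ES cell markers ran from 318 to 1566 CPM (read counts scaled to the size of the library) by the authors' deposited table. Of these 6, 3 rose and 1 fell by the authors' deposited table. All 10 measured endoderm markers fell, with a median log2 fold change of -2.16, and 2 of 4 fibroblast markers rose and 2 fell by the authors' deposited table. How far such cells contribute to the values below was not tested, and in bulk RNA fewer cells of a type and less RNA per cell cannot be told apart.

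Carriers of the Slc25 family are small proteins that mostly sit in the inner mitochondrial membrane, where each exchanges particular solutes, such as ADP for ATP, citrate for malate, or aspartate for glutamate. Nearly all mitochondrial proteins are made in the cytosol and enter through the TOM complex of the outer membrane. The TIM23 complex then takes proteins with a cleavable presequence into the matrix or inner membrane. The carriers themselves follow another route, on which small TIM chaperones escort them across the intermembrane space to the TIM22 complex, which inserts them into the inner membrane. ES cells rely heavily on glycolysis and have mitochondria of immature shape, yet depend on mitochondrial transport for nucleotide, amino acid and lipid synthesis.

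The import genes leaned upward without Tex19.1, and the carriers went both ways over a wider range. Of 23 import genes 10 rose and 2 fell (43.5% and 8.70%), against 25.2% and 26.5% of all genes by the authors' deposited table. Of 30 carriers 8 rose (26.7%) and 6 fell, shares near or under those of all genes by the authors' deposited table. Rises of at least 0.2 were reached by 4 carriers and 3 import genes, and by 12.0% of all genes, and falls of that size by 3 carriers and 1 import gene, and by 17.2% of all genes by the authors' deposited table. The median log2 fold change was -0.031 for carriers and 0.090 for import genes, beside 0.0031 for all genes by the authors' deposited table. Import genes ran from -0.26 to 0.23, while carriers ran from -0.75 to 0.44 on the log2 scale by the authors' deposited table. None of the 53 changed 2-fold, which 1.46% of all genes did by the authors' deposited table. Whether carriers and import genes differ as classes was not tested, because genes are not replicates of a condition and values per library were not used. With Bonferroni adjustment of the authors' p-values 2 import genes were called higher and 0 lower, where unadjusted p-values under 0.05 counted 12 and 2. Shares of all genes at these 2 thresholds are not given here, so these counts cannot be set against them. Set against the spread of genes of like expression (normal test with Benjamini-Hochberg adjustment), 0 import genes passed in either direction, also at an unadjusted p under 0.05. The smallest difference that this test called in any gene was 0.29 on the log2 scale, and the largest of an import gene was 0.22. Of the carriers 1 passed upward (Slc25a1) and 2 downward (Slc25a30 and Slc25a37), and of all genes 1.89% upward and 4.32% downward.

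**Figure D1:**
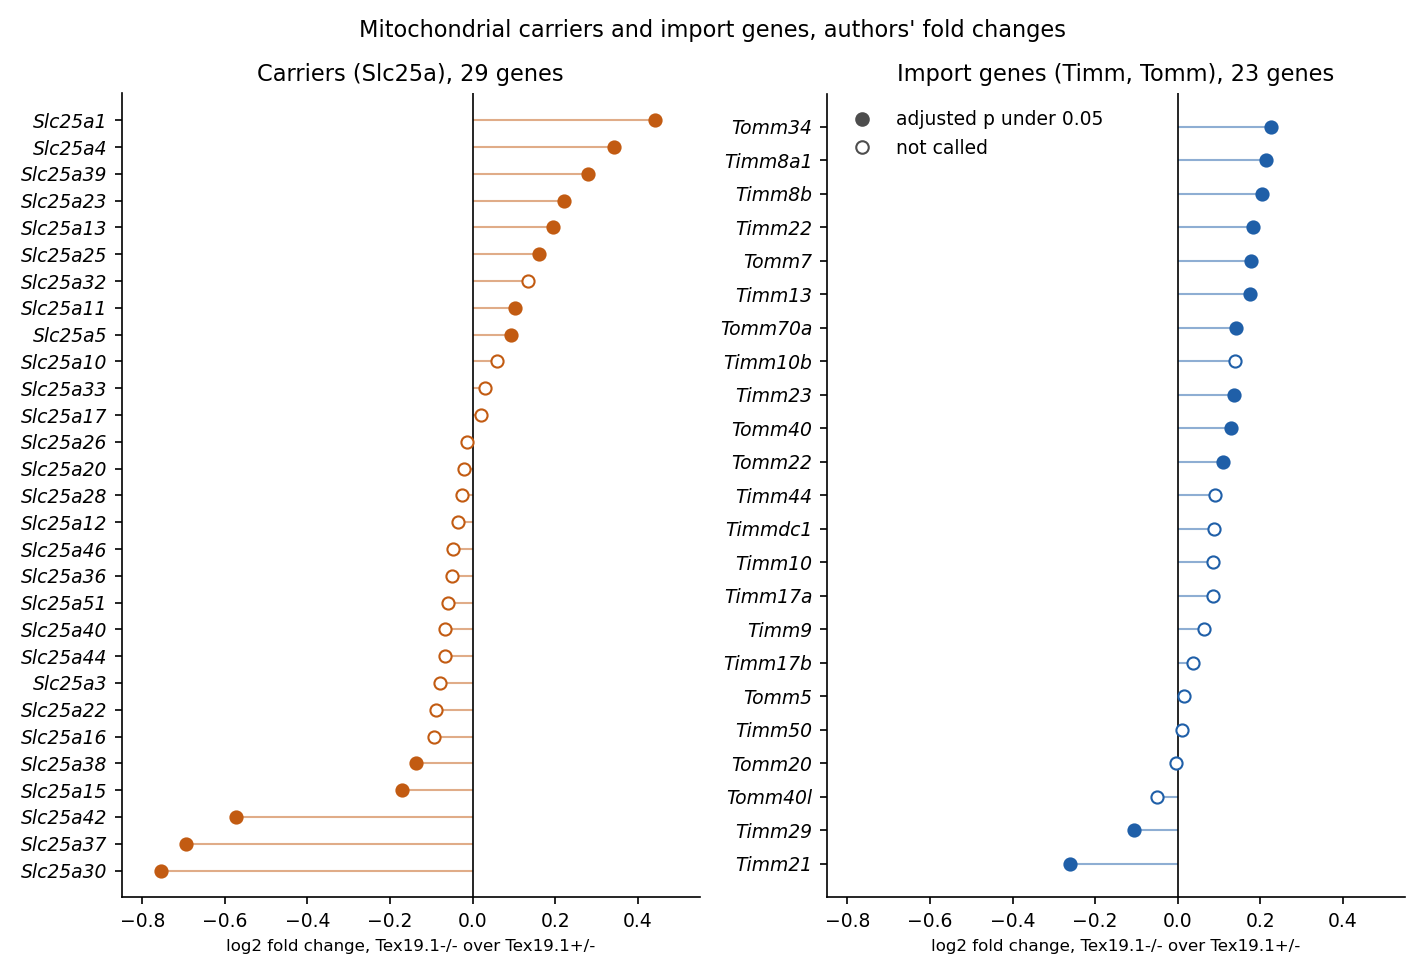
Log2 fold change (horizontal axis, Tex19.1-/- over Tex19.1+/-) of 29 of the 30 carriers (left) and 23 import genes (right), 1 point per gene, filled where the adjusted p was under 0.05, from the authors' deposited table. Import points run from -0.26 for Timm21 to 0.23 for Tomm34, and carrier points from -0.75 for Slc25a30 to 0.44 for Slc25a1.

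**Figure D2:**
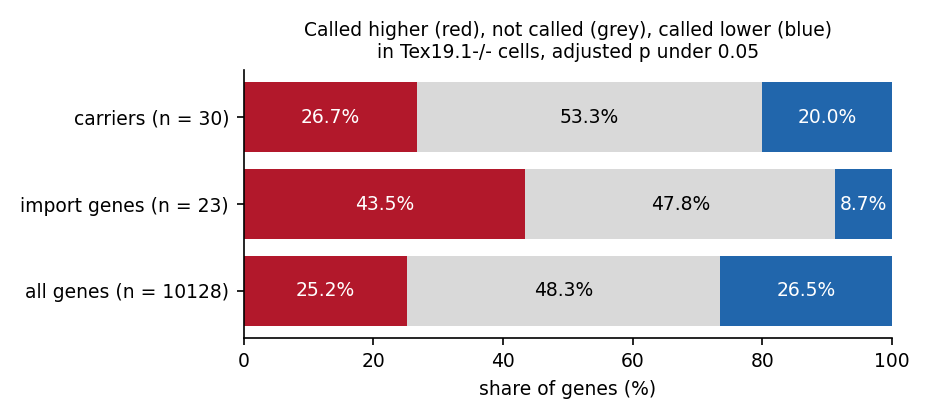
Share of genes (%) called higher, not called and called lower in Tex19.1-/- cells, for carriers, import genes and all genes, from the authors' deposited table. Import genes have the widest higher part, 43.5%, against 26.7% of carriers and 25.2% of all genes.

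Of the TOM complex, the entry gate of the outer membrane, 4 of 7 genes rose and 0 fell, which was also 0 at an unadjusted p under 0.05, and the median log2 fold change was 0.11 by the authors' deposited table. Tomm40, whose protein forms the channel, rose by 0.13 (9.44% more, adjusted p = 0.00253) on chromosome 7 from 19701313 to 19715438 (GRCm38) by the authors' deposited table. The receptor gene Tomm70a, whose protein takes in carrier precursors, rose by 0.14 (adjusted p = 0.000405), and Tomm22, a central receptor, by 0.11 (adjusted p = 0.0153) by the authors' deposited table. Tomm7, a small subunit that acts on the assembly of the complex, rose by 0.18 (adjusted p = 0.000264) by the authors' deposited table, and by 0.11 once corrected for GC content and transcript length. Not every receptor moved with them: Tomm20, the receptor for presequences, stood at -0.0052 (adjusted p = 0.920) at a mean of 380 CPM by the authors' deposited table. The small subunit gene Tomm5 was at 0.015 and Tomm40l, a paralog of Tomm40, at -0.051 (adjusted p = 0.774 and 0.410) by the authors' deposited table. Tomm40l shares 45.5% of its exon bases with Nr1i3 on the opposite strand, and the strand setting of the counting is not given in the sources used here, so its value is uncertain.

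The 6 small TIM chaperone genes all had fold changes above 0, with a median of 0.16, and 3 of them rose by the authors' deposited table; corrected for GC content and length, Timm9 was at -0.0085, Timm10 at 0.0013 and Timm8b at 0.11, still called. None fell, which held at an unadjusted p under 0.05 as well. Timm8a1, on chromosome X from 134537256 to 134541865, rose by 0.21 (15.9% more, adjusted p = 1.01e-05), and Timm8b by 0.20 (15.2% more, adjusted p = 2.56e-05) by the authors' deposited table. Timm13, the partner of the Timm8 proteins in a hexamer that binds hydrophobic precursors, rose by 0.18 (adjusted p = 0.000828) by the authors' deposited table. The other hexamer, which serves the carriers, is built of Timm9 and Timm10, whose genes stood at 0.063 and 0.086 (adjusted p = 0.383 and 0.189) by the authors' deposited table. Timm10b, which ties that hexamer to TIM22, was at 0.14 with an adjusted p of 0.0931 at a mean of 8.21 CPM, the lowest level among the import genes by the authors' deposited table. The pair of TIM22 complex genes split: Timm22, the insertion channel for carriers, rose by 0.18 (adjusted p = 0.00137), and Timm29, which stabilises the complex, fell by 0.11 (adjusted p = 0.0243) by the authors' deposited table.

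Of 6 genes of the TIM23 complex 1 rose and 1 fell, with a median of 0.061 by the authors' deposited table. Timm23, its channel gene, rose by 0.14 (9.86% more, adjusted p = 0.000912) by the authors' deposited table. The channel partner genes Timm17a and Timm17b stood at 0.085 and 0.038, and Timm44, which anchors the import motor, at 0.090 (adjusted p = 0.0557, 0.528 and 0.0502) by the authors' deposited table. Timm50, the receptor of the complex, was at 0.0093 (adjusted p = 0.876) by the authors' deposited table. Timm21, which bridges the complex to TOM and to respiratory chain assembly, had the lowest value of all import genes: it fell by 0.26, or by 16.6% (adjusted p = 0.000828) by the authors' deposited table.

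A pair of the named genes encode proteins outside the TOM and TIM complexes and the small TIM chaperones. Tomm34, a cytosolic co-chaperone of precursor proteins, had the largest rise of the 23, 0.23 or 17.0% (adjusted p = 1.18e-07) by the authors' deposited table. Timmdc1, an assembly factor of respiratory complex I, was at 0.087 (adjusted p = 0.317) by the authors' deposited table. Without both, 9 of 21 rose and 2 fell, with the same median of 0.090 by the authors' deposited table.

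Other parts of the import pathway, from a list of 23 genes chosen by function, were closer to all genes. Of 21 measured, 4 rose and 3 fell (19.0% and 14.3%), with a median of 0.033 by the authors' deposited table. The smallest p-values belonged to motor genes Dnajc15 at -0.51 and Dnajc19 at 0.22, to Mtx3, a metaxin of outer membrane assembly, at 0.20, and to Chchd4, the oxidase of the disulfide relay, at 0.11 by the authors' deposited table. Dnajc15 lies on chromosome 14, 8.58 Mb from the carrier gene Slc25a37 and past Slc25a30, where most measured genes around it also fell (described below for these carriers). None of the 6 processing peptidase and insertase genes and neither matrix chaperonin gene (Hspd1, Hspe1) passed, also at an unadjusted p under 0.05.

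**Figure D3:**
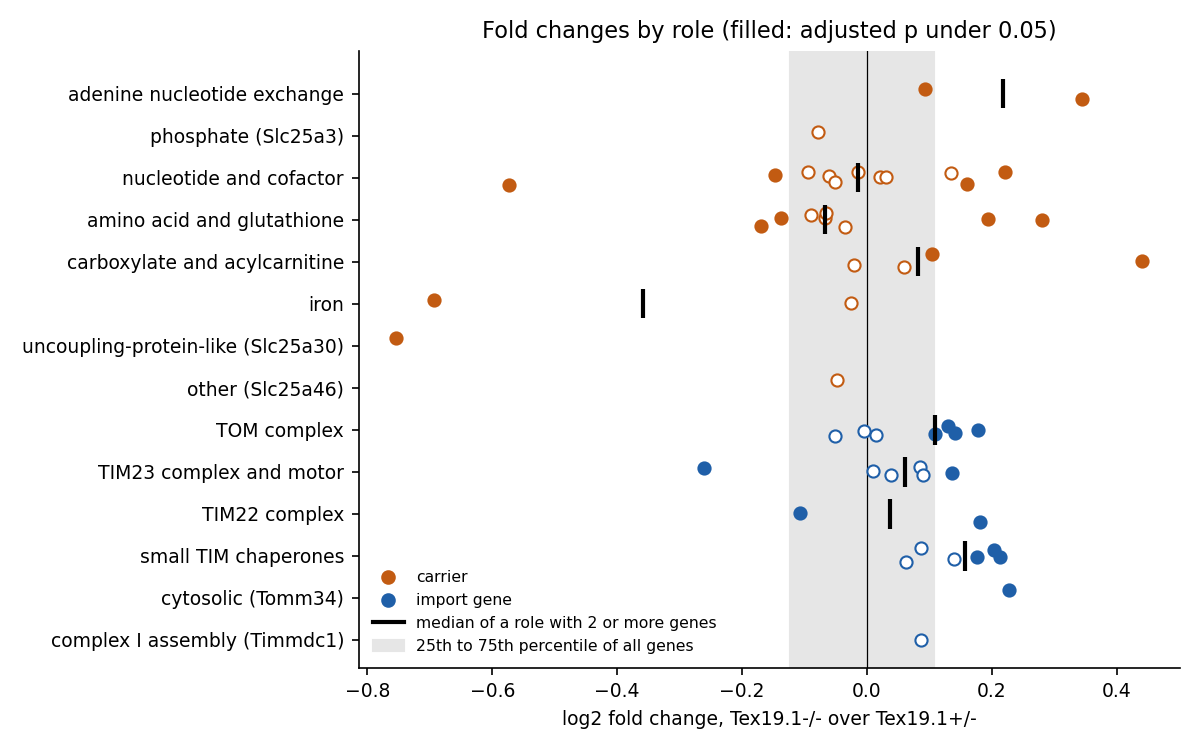
Log2 fold changes of the 53 genes grouped by the role of their products (rows), 1 point per gene, filled where the adjusted p was under 0.05, with black bars at the median of roles with 2 or more genes and grey from the 25th to the 75th percentile of all genes (-0.12 to 0.11), from the authors' deposited table. All 6 small TIM genes lie above 0 (corrected for GC content and length, Timm9 was at -0.0085), while the amino acid and the nucleotide and cofactor carriers spread to both sides.

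Among carriers, the largest rises were those of the citrate carrier gene Slc25a1 and the ADP/ATP carrier gene Slc25a4. The other called genes of their groups, Slc25a11 and Slc25a5, had the smallest rises of the 8 carriers that rose. Slc25a1 exports citrate, the source of cytosolic acetyl-CoA for sterol and fatty acid synthesis. It rose by 0.44, or 35.7% (adjusted p = 2.52e-26), at a mean of 77.2 CPM, on chromosome 16 from 17925223 to 17928219 by the authors' deposited table. Slc25a11, the oxoglutarate and malate exchanger, rose by 0.10 (adjusted p = 0.0151) by the authors' deposited table. The dicarboxylate carrier gene Slc25a10, which lies 0.654 Mb from Tex19.1 on chromosome 11, was at 0.059 (adjusted p = 0.482), and the acylcarnitine carrier gene Slc25a20 at -0.021 (adjusted p = 0.722) by the authors' deposited table. The pyruvate carrier, which supplies the same pathways but belongs to another family, went the other way: Mpc1 fell by 0.43 and Mpc2 by 0.32 (adjusted p = 1.40e-15 and 6.08e-05) by the authors' deposited table. These had the smallest p-values in a list of 24 other mitochondrial transport genes, 18 of them measured. Of the 18, 3 rose and 4 fell (16.7% and 22.2%), against 25.2% and 26.5% of all genes, with a median of 0.028 by the authors' deposited table.

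Both measured ADP/ATP carrier genes rose. Slc25a4, the form typical of muscle and heart, rose by 0.34, or 26.9% (adjusted p = 3.01e-13), on chromosome 8 from 46206797 to 46211284 by the authors' deposited table. Slc25a5, the form typical of dividing cells, rose by 0.092, or 6.60% (adjusted p = 0.0303) by the authors' deposited table. The call of Slc25a5 was lost at a threshold of 0.01, with Bonferroni adjustment, against genes of like expression (0.024) and after correction for GC content and length (0.035), and less the median of its neighbours it stood at -0.014. Per kilobase of transcript, the mean level of Slc25a5 was 534 CPM, 6.12 times that of Slc25a4 at 87.1 CPM, computed from the means by the authors' deposited table, so the larger relative rise was in the less abundant form. These paralogs are close in sequence, and how the counting treated shared reads is not given in the sources used here. Slc25a3, which supplies the phosphate for ATP synthesis, stood at -0.078 (adjusted p = 0.0557) at a mean of 407 CPM by the authors' deposited table.

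Carriers of amino acids and glutathione split 2 up and 2 down of 8, with a median of -0.067 by the authors' deposited table. Slc25a39, a glutathione importer, rose by 0.28, or 21.4% (adjusted p = 1.79e-12), whereas its paralog Slc25a40 was at -0.066 (adjusted p = 0.254) by the authors' deposited table. Per kilobase Slc25a39 was the more abundant, at 111 CPM against 10.4 CPM for Slc25a40 by the authors' deposited table. The aspartate and glutamate exchangers of the malate-aspartate shuttle showed a like pattern: Slc25a13 (citrin) rose by 0.19 (adjusted p = 5.02e-07) and Slc25a12 (aralar) was at -0.035 (adjusted p = 0.467) by the authors' deposited table. The difference between the members of these pairs was not tested. The ornithine carrier gene Slc25a15 fell by 0.17 and the glycine carrier gene Slc25a38, needed for haem synthesis, by 0.14 (adjusted p = 0.00123 and 0.0250) by the authors' deposited table. The glutamate carrier gene Slc25a22 was at -0.089 and Slc25a44, a carrier of branched-chain amino acids, at -0.067 (adjusted p = 0.181 and 0.226) by the authors' deposited table.

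Of 11 nucleotide and cofactor carriers 2 rose and 2 fell, with a median of -0.014 by the authors' deposited table. The risers were the calcium-regulated ATP-Mg and phosphate carriers Slc25a23 at 0.22 and Slc25a25 at 0.16 (adjusted p = 0.000710 and 0.00589) by the authors' deposited table. Slc25a25 shares 9.20% of its exon bases with Naif1 on the opposite strand, which stood at -0.34 by the authors' deposited table. Slc25a42, a coenzyme A carrier and the least expressed member at 7.43 CPM, fell by 0.57, or by 32.8% (adjusted p = 1.62e-12) by the authors' deposited table. Slc25a42 lies on chromosome 8 from 70184340 to 70212305, where the 20 nearest measured genes had a median of 0.012 by the authors' deposited table. Those that did not pass lay between -0.094 and 0.13: the carriers of pyrimidine nucleotides (Slc25a33, Slc25a36), folate or FAD (Slc25a32), NAD+ (Slc25a51) and S-adenosylmethionine (Slc25a26), the peroxisomal Slc25a17, and Slc25a16 by the authors' deposited table. Slc25a46, an outer membrane family member that acts in mitochondrial dynamics, was at -0.048 (adjusted p = 0.380) by the authors' deposited table. Of 3 other carrier-fold genes without the Slc25a name, Ucp2, an uncoupling protein family member, fell by 0.60, Mtch2 fell by 0.11 and Mtch1 rose by 0.26 by the authors' deposited table.

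The largest falls of the family belonged to a pair of genes on chromosome 14. Slc25a30, an uncoupling-protein-like carrier at 75760117 to 75787037, fell by 0.75, or by 40.7% (adjusted p = 1.56e-26), at a mean of 13.1 CPM by the authors' deposited table. Slc25a37 (mitoferrin 1, the iron importer prominent in red cell precursors), at 69241848 to 69285112, fell by 0.69, or by 38.1% (adjusted p = 4.91e-34) by the authors' deposited table. The other iron importer gene, Slc25a28 (mitoferrin 2), on chromosome 19, was at -0.026 (adjusted p = 0.736), and its mean per kilobase was 3.22 times that of Slc25a37 by the authors' deposited table.

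Their neighbours had similar values. Of the 20 measured genes nearest to Slc25a37, 10 on each side, 19 fell and 0 rose, with a median log2 fold change of -0.70; around Slc25a30 the counts were the same and the median was -0.68 by the authors' deposited table. The pair lie 6.52 Mb apart, and of the 35 measured genes between them 33 fell and 0 rose by the authors' deposited table. Their nearest measured neighbours, Entpd4 and Cog3 (chosen after their values were seen), stood at -0.73 and -0.74 by the authors' deposited table. After the median of its neighbours was subtracted, the fold change of Slc25a37 was 0.0021 and that of Slc25a30 -0.074 on the log2 scale, against -0.69 and -0.75 before. Over all of chromosome 14, 50.4% of 363 measured genes fell and 18.7% rose; Timm23, which rose, lies in another part of it, at 32180162 to 32201898 by the authors' deposited table. Without chromosome 14, carriers counted 8 higher and 4 lower of 28. The neighbours of other changed members were mostly near 0, but those of Slc25a39, Slc25a4, Slc25a11 and Slc25a5 had medians of 0.12, 0.12, 0.12 and 0.11, those of Timm8a1 0.10 and those of Slc25a25 -0.12 by the authors' deposited table. Less these medians Slc25a39 kept 0.16 and Slc25a4 0.23, while Slc25a11 was at -0.018 and Slc25a5 at -0.014 by the authors' deposited table. Timm8a1 then stood at 0.11, Slc25a25 at 0.28 and Timm29 at -0.057.

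**Figure D4:**
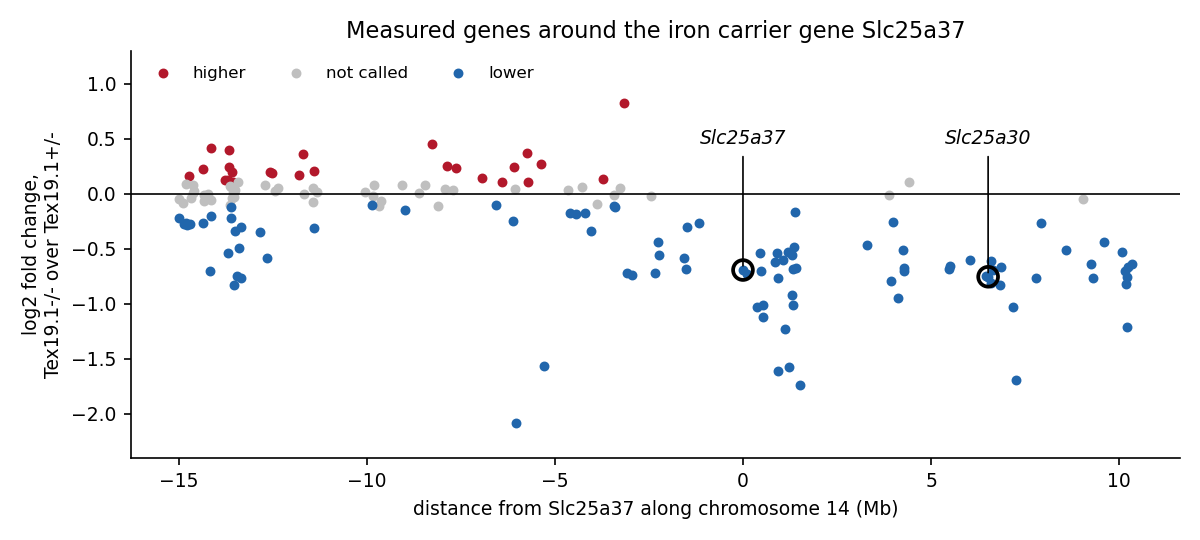
Log2 fold change (vertical axis, Tex19.1-/- over Tex19.1+/-) of measured genes against their distance in Mb from the start of Slc25a37 along chromosome 14, 1 point per gene coloured by call, with Slc25a37 and Slc25a30 circled, from the authors' deposited table. From Slc25a37 on to Slc25a30 and beyond, nearly all points are lower, with a median of -0.68 for the 35 genes between the 2 circles.

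Promoter sequences are shown for the called gene with the smallest p-value in each of the TOM, TIM23 and small TIM groups, and for the 2 carriers with the smallest p-values in each direction, among members with exactly 1 promoter in the RefSeq table (build GRCm38.p6, in which 43 of the 53 members have an entry). They are the 250 bases before the RefSeq transcript start, 5′ to 3′ on the gene's strand. Capitals mark 2 short motifs searched on both strands. CCGGAAG is a form of the ETS site that GABP, a regulator of nuclear genes for mitochondrial proteins, can bind. CACGTG is an E-box of the kind MYC can bind. In the sequences shown these do not overlap each other. The import genes that rose are Tomm70a (chr16:57121464-57121713, plus strand), Timm23 (chr14:32201892-32202141, minus strand) and Timm8a1 (chrX:134541671-134541920, minus strand). The carriers that rose are Slc25a1 (chr16:17928220-17928469, minus strand) and Slc25a4 (chr8:46211063-46211312, minus strand), and those that fell are Slc25a30 (chr14:75787038-75787287, minus strand) and Slc25a42 (chr8:70212282-70212531, minus strand). RefSeq and GENCODE starts differ for some of them. The GENCODE spans of Slc25a4 (to 46211284) and Timm8a1 (to 134541865) cover most of their windows. The ETS letters marked in Slc25a4, and those marked nearest the RefSeq start in Tomm70a, lie inside the GENCODE spans of these genes. The spans of Tomm70a, Timm23 and Slc25a42 reach a short way into their windows.
Tomm70a: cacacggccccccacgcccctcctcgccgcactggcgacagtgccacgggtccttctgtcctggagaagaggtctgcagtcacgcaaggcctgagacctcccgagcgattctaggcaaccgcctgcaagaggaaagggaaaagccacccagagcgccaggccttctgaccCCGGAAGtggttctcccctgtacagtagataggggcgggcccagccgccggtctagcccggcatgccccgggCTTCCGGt
Timm23: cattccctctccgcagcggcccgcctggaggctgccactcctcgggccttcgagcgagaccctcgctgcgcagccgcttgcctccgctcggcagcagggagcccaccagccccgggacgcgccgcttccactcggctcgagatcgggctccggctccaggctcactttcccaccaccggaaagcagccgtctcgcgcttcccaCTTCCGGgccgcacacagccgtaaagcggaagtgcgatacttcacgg
Timm8a1: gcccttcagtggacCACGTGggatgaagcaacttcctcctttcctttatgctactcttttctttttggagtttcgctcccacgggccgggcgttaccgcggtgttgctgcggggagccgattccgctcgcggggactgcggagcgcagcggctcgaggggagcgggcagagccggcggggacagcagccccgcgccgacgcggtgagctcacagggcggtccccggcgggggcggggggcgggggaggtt
Slc25a1: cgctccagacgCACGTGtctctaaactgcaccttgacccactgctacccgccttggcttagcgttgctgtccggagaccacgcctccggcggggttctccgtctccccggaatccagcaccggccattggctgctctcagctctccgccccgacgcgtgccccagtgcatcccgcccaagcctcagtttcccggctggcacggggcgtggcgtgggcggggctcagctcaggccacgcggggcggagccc
Slc25a4: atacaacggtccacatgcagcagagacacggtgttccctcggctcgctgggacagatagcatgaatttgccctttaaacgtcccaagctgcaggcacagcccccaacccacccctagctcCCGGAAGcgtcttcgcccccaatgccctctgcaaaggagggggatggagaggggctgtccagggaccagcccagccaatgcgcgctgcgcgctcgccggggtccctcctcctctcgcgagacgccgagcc
Slc25a30: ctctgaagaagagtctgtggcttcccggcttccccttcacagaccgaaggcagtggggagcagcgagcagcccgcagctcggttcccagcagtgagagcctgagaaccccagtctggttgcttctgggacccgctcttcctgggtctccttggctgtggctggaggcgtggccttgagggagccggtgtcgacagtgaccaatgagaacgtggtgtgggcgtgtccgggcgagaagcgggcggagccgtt
Slc25a42: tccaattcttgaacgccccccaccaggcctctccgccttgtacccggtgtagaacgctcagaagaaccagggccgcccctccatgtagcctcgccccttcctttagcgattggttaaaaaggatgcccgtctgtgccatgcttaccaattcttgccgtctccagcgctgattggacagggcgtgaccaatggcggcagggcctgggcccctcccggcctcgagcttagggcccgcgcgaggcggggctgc
The ETS letters stood in promoters of 8 of 20 import genes (40.0%), 5 of 23 carriers (21.7%) and 17.6% of the 7640 measured genes with an entry. A gene with more than 1 entry, such as Tomm34 with 2, was counted if any of its entries held the letters. Of the import genes that rose, 5 of 9 with an entry held them (Tomm70a, Tomm22, Tomm34, Timm23 and Timm8b), against 1 of 8 carriers that rose (12.5%), 17.8% of all genes called higher and 12.9% of all called lower. Tomm70a holds them at 80 to 74 and at 8 to 2 bases before the RefSeq start, and Timm23 at 47 to 41 bases before it. The E-box letters stood in promoters of 3 of 20 import genes, 5 of 23 carriers (21.7%) and 10.7% of all. They lie at 239 to 234 bases before the RefSeq start of Slc25a1 and at 236 to 231 before that of Timm8a1. Neither motif was found in the windows of Slc25a30 and Slc25a42. Other members that fell did hold one: Timm29 and Slc25a38 the ETS letters, and Slc25a15 the E-box letters. A match is a description of the letters, not of binding, and these shares were not tested. Core letters of 3 more motifs, not capitalised, were no more frequent in members than in all genes. NRF1 (GCATGCG) stood in promoters of 0 of 23 carriers and 1 of 20 import genes, against 7.12% of all. YY1 (AAGATGG, which can overlap the end of the ETS letters) did so in 0 and 1 against 5.38%. The sterol response element (TCACCCC) did so in 0 and 1 against 5.35%. These cores were chosen after longer forms of the same motifs, not shown, had been counted.

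The classes overlapped in expression level. Mean levels ran from 7.43 to 662 CPM for carriers (median 28.8) and from 8.21 to 380 CPM for import genes (median 48.8), against a median of 33.0 CPM for all genes by the authors' deposited table. The lowest mean of any gene is 3.52 CPM by the authors' deposited table. With a minimum of 16 CPM, 10 of 19 import genes rose and 1 fell, and 7 of 23 carriers rose and 4 fell, beside 26.9% higher and 24.8% lower of all such genes by the authors' deposited table. Slc25a5, Slc25a11, Tomm22 and Timm23 (0.075) lost their call once fold changes were corrected for GC content and length. Exons of 18 of the 53 members overlap those of another gene in GENCODE, in 6 of them over at least 10% of their bases, Tomm40 (15.4%) and Timm8b (15.6%) among them.

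**Figure D5:**
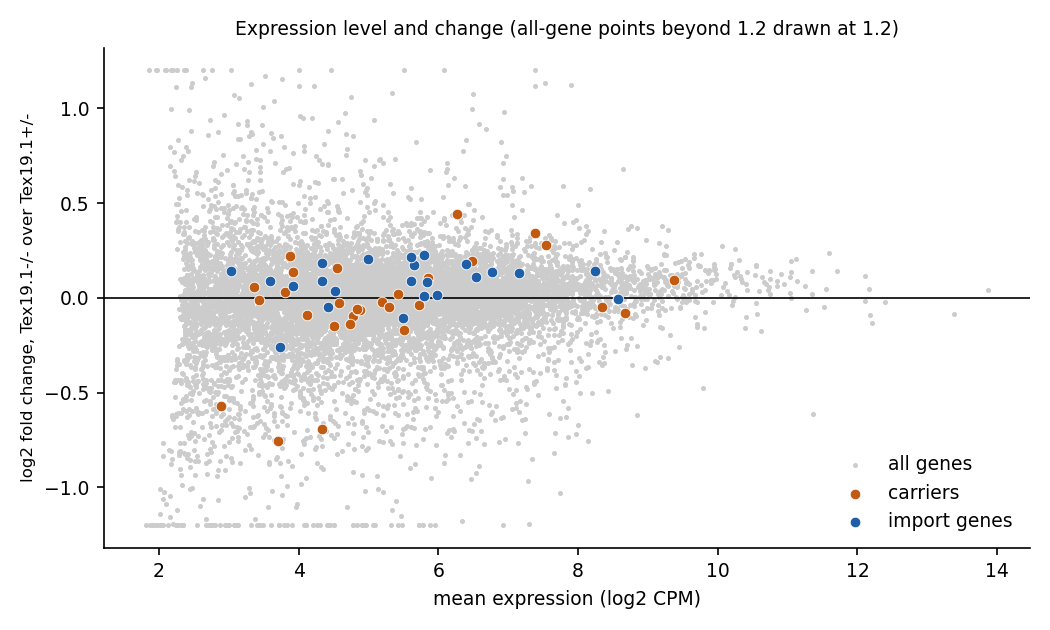
Log2 fold change (vertical axis, Tex19.1-/- over Tex19.1+/-) against mean expression in log2 CPM (horizontal axis) for all 10128 genes (grey), carriers and import genes, 1 point per gene, with grey points beyond 1.2 drawn at 1.2, from the authors' deposited table. Carriers and import genes cover much the same range of expression, and the 3 lowest coloured points are the carriers Slc25a30, Slc25a37 and Slc25a42.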

How the data were processed

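RNA was extracted with TRIzol and made into TruSeq Stranded mRNA libraries for paired sequencing, per the labels' protocols. Per the submitters' processing notes, the build was mm10 and the tools included TopHat2 (2.1.0), HTSeq (0.11.2), Trim Galore (0.4.1) and edgeR. Which annotation, strand setting, low-count filter and test they used is not given in the sources used here. Each gene has 4 deposited values per the file headers: the log2 fold change, the mean expression as log2 CPM, the p-value and its adjusted p-value (FDR). Benjamini-Hochberg adjustment of the deposited p-values gave the same FDR within 6.7e-05. Had counts per library been used, a count model was planned; the authors' fit stands in its place, with no SD.

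Percent changes, CPM, medians and counts were computed from these values (Python 3.11.15, pandas 2.3.3, scipy 1.17.1, statsmodels 0.14.6). Positions, and the length and GC content of each gene's principal transcript, come from GENCODE M21 (GRCm38, the assembly that mm10 names), matched by symbol or RefSeq synonym for 9723 genes. CPM per kilobase divides by that length. Every member may be named but 1, a carrier that is counted but not reported here by itself; of other lists the 4 smallest p-values, and genes chosen after their values were seen are marked so. The members and lists were chosen with earlier results of these data known. The alternatives tried were a threshold of 0.01 on the adjusted p, Bonferroni adjustment, a change of at least 0.2, genes of at least 16 CPM, leaving out chromosomes, membership by function, the spread of the 301 genes of nearest expression (1.4826 times the median absolute deviation), and a lowess trend (span 0.3) on GC content and length removed.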

Additional observations from a re-analysis of the deposited data

How the results depend on the processing

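No paired analysis was possible because the deposited columns carry no value per library; for the same reason leaving out single libraries was not run. With an adjusted p under 0.01, a minimum of 16 CPM, or a GC and length trend removed, the counts stayed within 1.5 times those reported, except import genes called lower, which were 1 in each of the first 2 of these settings. Bonferroni adjustment left 4 carriers higher and 3 lower, and 2 import genes higher and 0 lower, with no share of all genes given beside them. Calls of at least 0.2 in size numbered 4 and 3 for carriers and 3 and 1 for import genes. Against genes of like expression they were 1 and 2 for carriers and 0 and 0 for import genes. Without chromosomes 2, 11, 14 and Y, 5 of 22 carriers rose and 3 fell. With members chosen by function, 13 of 42 import genes rose and 5 fell, beside 25.2% and 26.5% of all genes. Their median was 0.061, against 0.090 for the import genes chosen by name. Both medians kept their sign and stayed within 0.05 in each setting that changes the values or the members. At an adjusted p under 0.01, Slc25a5, Slc25a11, Slc25a38, Tomm22 and Timm29 were not called. A pair of settings were chosen after seeing the data: leaving out chromosome 14 alone, and subtracting the median of 20 neighbouring genes. Subtracting the neighbours turned the sign of Slc25a37 (0.0021), Slc25a5 (-0.014) and Slc25a11 (-0.018), and of the uncalled Slc25a20 (0.0016), Tomm20 (0.055) and Timm50 (-0.077). Signs of genes that were not called turned against genes of like expression for Slc25a26 (0.0065), Timm50 (-0.0075) and Tomm5 (-0.0029). With the trend removed they turned for Slc25a17 (-0.0076), Tomm20 (0.010), Timm50 (-0.0081), Tomm5 (-0.076) and Timm9 (-0.0085). The trend also ended the calls of Slc25a5, Slc25a11, Tomm22 and Timm23 and brought Slc25a3, Slc25a32 and Timm17a past the threshold. The causes of these changes were not tested.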
